A study of Mus musculus with 6 samples.

Results

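The genes described here are 9 scaffolds of the postsynaptic density: *Shank1*, *Shank2*, *Shank3*, *Dlg2*, *Dlg3*, *Dlg4*, *Dlgap1*, *Homer1* and *Homer2*. They were picked out by symbol from the 21667 named genes in the RNA-Seq tables. The RNA came from somatosensory cortex of 6 adult male mice of a mixed SVeV-129 and C57BL/6J background, with 3 mice per genotype. Controls carried floxed *Mef2c* alleles and no Cre (Mef2cfl/fl), and *Mef2c* cKO mice carried the same alleles with Cre (Mef2cfl/fl; Emx1-Cre). In each genotype replicate 1 was 14 weeks old and replicates 2 and 3 were 12 weeks old. The Cre sits in the *Emx1* gene and acts from embryonic life in most excitatory neurons of the neocortex and hippocampus and in some forebrain glia, so the remaining cells of the tissue keep *Mef2c*, and the controls do not control for Cre itself.

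At an excitatory synapse the postsynaptic density is a protein lattice under the membrane that holds glutamate receptors in place. The DLG proteins (PSD-93, SAP102 and PSD-95 for *Dlg2*, *Dlg3* and *Dlg4*) lie nearest the membrane and bind NMDA receptors, AMPA receptor auxiliary subunits and neuroligins. DLGAP1 (GKAP) links them to the SHANK proteins deeper in the lattice, and HOMER proteins cross-link SHANK to metabotropic glutamate receptors and to calcium release channels of the endoplasmic reticulum. *Mef2c* encodes a MADS-box transcription factor of neurons, and the comparison asks how the transcripts of this lattice stood when it was removed from cortical excitatory neurons.

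In limma on the recovered reads, none of the 9 scaffold genes passed the study's pair of cut-offs. These are an adjusted p under 0.05 and an absolute log2 fold change above 0.3. The study, which used DESeq at these cut-offs, named *Shank2* and *Shank3* among its differentially expressed genes. In limma the same cut-offs called 12.9% of the 14595 genes tested, 7.36% lower and 5.53% higher in *Mef2c* cKO cortex. Without adjustment, limma gave a p under 0.05 for 7 of the 9 and for 27.6% of all tested genes, and limma voom on the recovered counts also placed 0 past both cut-offs. By adjusted p alone, *Shank2* and *Dlg4* were lower, 2 of 9 genes, where 15.1% of all tested genes passed in either direction and 8.60% passed as lower. Of the 9 log2 fold changes 8 were below 0, with a median of -0.19, while 48.8% of all tested genes were below 0 and their median was 0.01. The differences were small, from -0.28 for *Shank2* to 0.15 for *Dlg3*, and the 95% intervals of all 9 genes lay within a log2 fold change of 1 in either direction. In 6 of the 9 genes each *Mef2c* cKO mouse lay below each control, and in 1, *Dlg3*, each lay above. Among 12911 tested genes with a read count in all 6 mice, 17.5% separated the genotypes as lower and 16.0% as higher. The p-values are from limma with Benjamini-Hochberg adjustment over all tested genes, and an exact permutation test of 3 mice against 3 cannot give a p below 0.1. In bulk cortex, fewer cells of a type and less RNA per cell cannot be told apart.

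**Figure D1:**
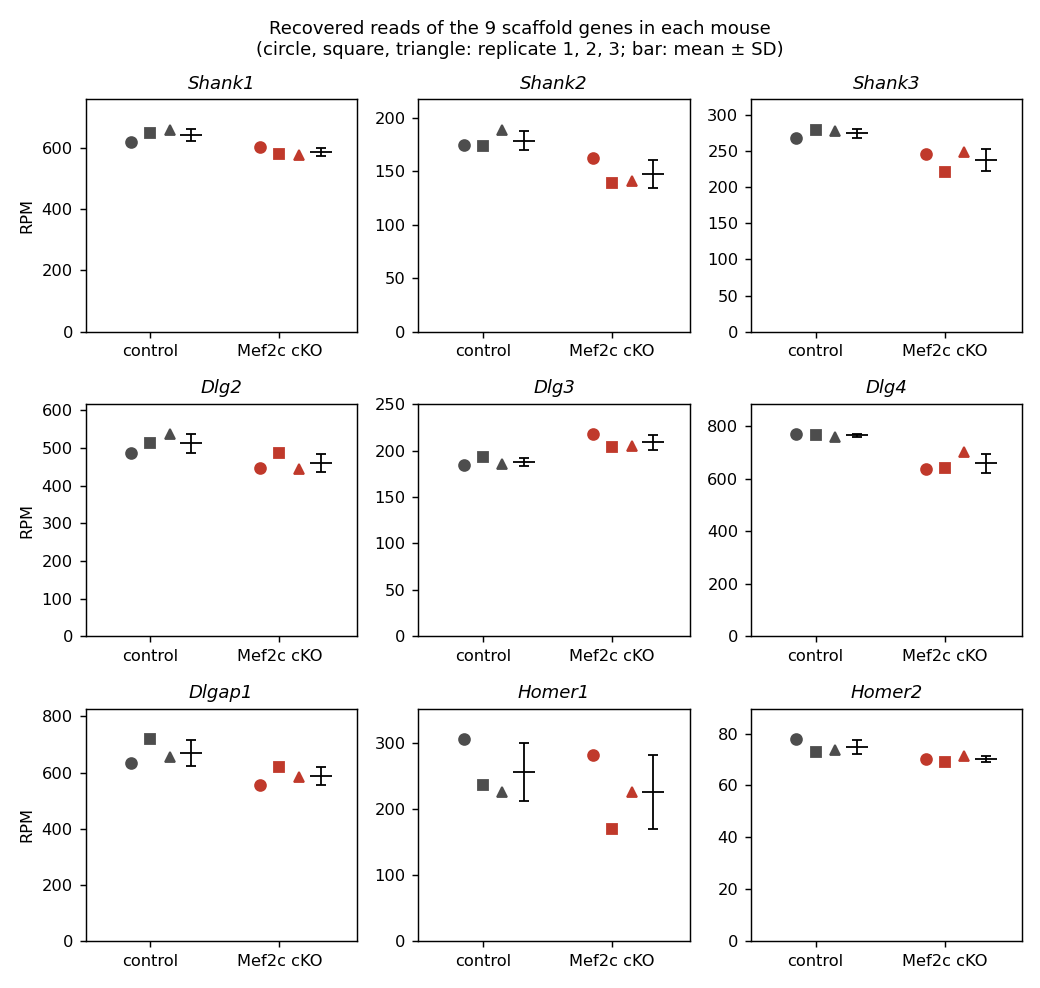
Level of each scaffold gene in RPM (reads scaled to a sample total of 1000000, vertical axes from 0) in the 3 control (grey) and 3 *Mef2c* cKO mice (red), with mean and SD beside the points. The genotypes do not overlap for *Shank1*, *Shank2*, *Shank3*, *Dlg4*, *Dlgap1* and *Homer2* (lower in *Mef2c* cKO) and *Dlg3* (higher), while *Dlg2* and *Homer1* overlap.

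**Figure D2:**
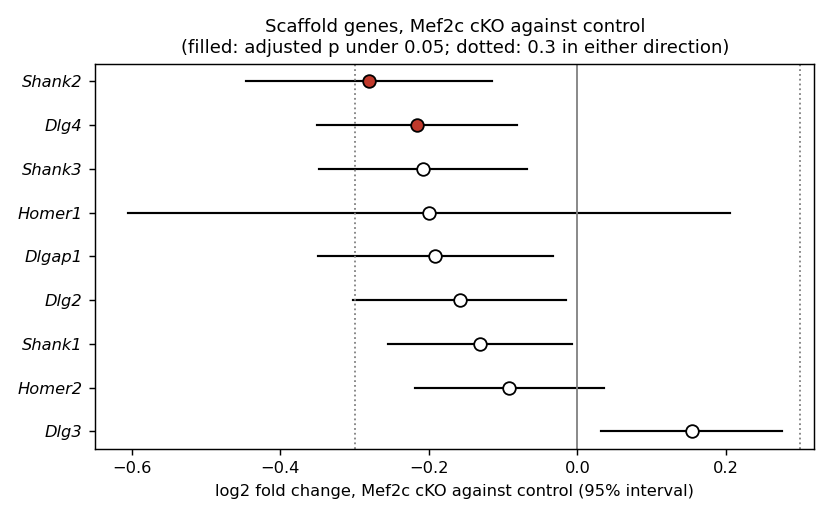
Log2 fold change of each scaffold gene, *Mef2c* cKO against control, with its 95% interval from limma (3 mice per genotype). The filled points, *Shank2* and *Dlg4*, had an adjusted p under 0.05, and no point lies beyond the dotted lines at 0.3 in either direction.

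The values had to be rebuilt before any such comparison. The deposited RPKM divide each gene's reads by a length that changes from mouse to mouse, so one gene's RPKM spanned between 6.33-fold (*Shank3*) and 1250-fold (*Dlgap1*) across the 6 mice. For *Dlgap1* the RPKM ran from 3.48 in control 1, where the length behind it was 182326 bases, to 4337 in control 2, where it was 166 bases. The steps between low RPKM values gave the whole read counts back, and in RPM, the reads divided by the sample total and scaled to 1000000, *Dlgap1* then spanned 1.29-fold. All 54 values of the scaffold genes were recovered. Their spans came to between 1.13-fold (*Homer2*) and 1.8-fold (*Homer1*). In 2 of the 54 values more than 1 length was possible: *Dlgap1* in control 2, where the shorter length was taken, and *Homer2* in *Mef2c* cKO 1, which the gene order shared with other mice settled. Sample totals were between 19326365 and 54128334 reads, and a scaffold gene had from 1337 (*Homer2*, *Mef2c* cKO 2) to 39039 reads (*Dlg4*), so counting error was at most 2.73% of any value. All 9 genes passed the filter on low values.

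**Figure D3:**
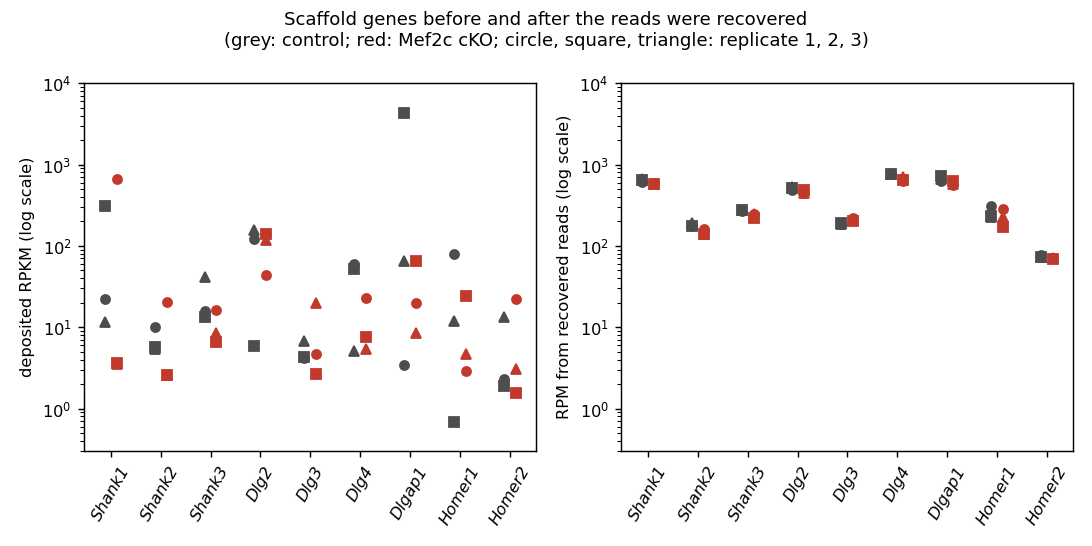
The 9 scaffold genes in the 6 mice as deposited RPKM (left) and as recovered RPM (right), both on log axes of the same range. Points of one gene lie up to 1250-fold apart on the left and no more than 1.8-fold apart on the right.

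The *Mef2c* gene itself had 800.3, 771.8 and 800.2 RPM in the controls and 1231, 1276 and 1468 in *Mef2c* cKO mice, a rise of 0.74 on the log2 scale (SE 0.08, limma adjusted p = 0.0003). A count over the whole gene includes exons outside a floxed part, so it does not check the deletion. Of its paralogs, *Mef2d* rose by 0.35 (adjusted p = 0.00243) and *Mef2a* had a log2 fold change of 0.16 (adjusted p = 0.101). The study, which used DESeq, reported no significant change in either paralog, whereas in limma *Mef2d* passed both cut-offs. Across genes, log2 levels of 2 mice correlated with r between 0.9916 and 0.9945 within a genotype and between 0.9786 and 0.981 between genotypes. Excitatory neuron markers were abundant in each mouse, with 11 markers summing to between 5817 and 6942 RPM, and choroid plexus markers were near absent, at 9.38 to 31.6 for 6 markers, the highest of them in control 3.

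The SHANK genes encode the large scaffolds deep in the lattice, and all 3 were lower in each *Mef2c* cKO mouse than in any control. *Shank2* (mm9, chr7:151187833-151610399, plus strand) had 174.3, 173.4 and 189.0 RPM in the controls and 162.3, 139.1 and 141.2 in *Mef2c* cKO mice. It fell by 0.28 on the log2 scale (SE 0.07, 95% interval -0.45 to -0.11, adjusted p = 0.0336), a change of -17.7%. *Mef2c* cKO 1 was nearest to the controls. Without that mouse the log2 fold change was -0.35 with an adjusted p of 0.0117, past both cut-offs. When any other mouse was left out instead, the adjusted p was above 0.05, from 0.0655 without control 2 to 0.108 without *Mef2c* cKO 2. The call of *Shank2* held with age as a covariate and was lost without the variance trend (adjusted p = 0.0872). *Shank3* (chr15:89330054-89390692, plus strand), the gene whose loss is known from Phelan-McDermid syndrome, had 267.5, 279.2 and 277.2 in the controls and 245.5, 220.6 and 248.1 in *Mef2c* cKO mice. Its log2 fold change was -0.21 (SE 0.06, interval -0.35 to -0.07), and its adjusted p of 0.054 missed the threshold. *Shank1* (chr7:51565623-51613721, plus strand), the most abundant of the 3 by reads, had 618.6, 646.3 and 658.4 in the controls and 601.1, 579.1 and 576.1 in *Mef2c* cKO mice. Its log2 fold change was -0.13 (interval -0.25 to -0.01, adjusted p = 0.159).

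Reads over the SHANK genes summed to 1095 ± 32.3 RPM in controls and 971.0 ± 35.4 in *Mef2c* cKO mice (SD, n = 3 each), with no overlap and the smallest p that the exact permutation test allows, 0.1. As all 3 genes separated the genotypes as lower, their sum had to as well, and its p adds no test. *Shank1* took 58.3%, 58.8% and 58.5% of these reads in the controls and 59.6%, 61.7% and 59.7% in *Mef2c* cKO mice. The shares of *Shank2* and *Shank3* overlapped between genotypes (exact permutation p = 0.2 and 0.5, n = 3 each).

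The membrane-facing DLG genes did not share a direction. *Dlg4* (chr11:69830587-69859034, plus strand), which encodes PSD-95, had 767.9, 767.2 and 757.4 RPM in the controls and 634.7, 640.6 and 700.4 in *Mef2c* cKO mice. The controls agreed to within an SD of 5.87, and *Mef2c* cKO 3 lay nearest to them. *Dlg4* fell by 0.22 on the log2 scale (SE 0.06, interval -0.35 to -0.08, adjusted p = 0.0412), a change of -13.9%, and in 5 of 6 fits that left out 1 mouse the adjusted p was above 0.05 (range 0.0264 without *Mef2c* cKO 3 to 0.13 without *Mef2c* cKO 1). Its call was also lost with age as a covariate (adjusted p = 0.0749), with median-of-ratios scaling (0.0521), without the filter (0.0623) and without the variance trend (0.0904). *Dlg3* (chrX:97963061-98013749, plus strand), which encodes SAP102, the member known for synapses early in development, had 184.7, 192.9 and 185.1 in the controls and 217.4, 203.3 and 205.3 in *Mef2c* cKO mice. It was the one gene of the 9 with a positive log2 fold change, 0.15 (SE 0.05, interval 0.03 to 0.28, adjusted p = 0.095). *Dlg2* (chr7:97650473-99595513, plus strand), which encodes PSD-93 and spans 1945 kb, had 486.7, 514.3 and 535.9 in the controls and 447.3, 486.9 and 442.9 in *Mef2c* cKO mice. *Mef2c* cKO 2 overlapped the lowest control, and the log2 fold change was -0.16 (interval -0.30 to -0.01, adjusted p = 0.142).

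The balance of *Dlg3* and *Dlg4* within a mouse differed between the genotypes. Of the reads on *Dlg2*, *Dlg3* and *Dlg4*, *Dlg3* took 12.8%, 13.1% and 12.5% in the controls and 16.7%, 15.3% and 15.2% in *Mef2c* cKO mice. The ratio of *Dlg3* to *Dlg4* reads was 0.241, 0.251 and 0.244 in the controls and 0.343, 0.317 and 0.293 in *Mef2c* cKO mice, or 1.29 times as high on average, with no overlap (exact permutation p = 0.1, n = 3 each, the smallest possible). As each *Mef2c* cKO mouse was higher in *Dlg3* and lower in *Dlg4* than each control, this ratio had to separate. Its p therefore adds no test beyond the single genes. A ratio within a mouse does not depend on how its total was scaled. The shares of *Dlg2* and *Dlg4* overlapped between genotypes, at 34.98% ± 1.22 against 34.62% ± 1.88 for *Dlg2* and 52.21% ± 1.07 against 49.64% ± 2.02 for *Dlg4* (SD, n = 3 each).

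**Figure D4:**
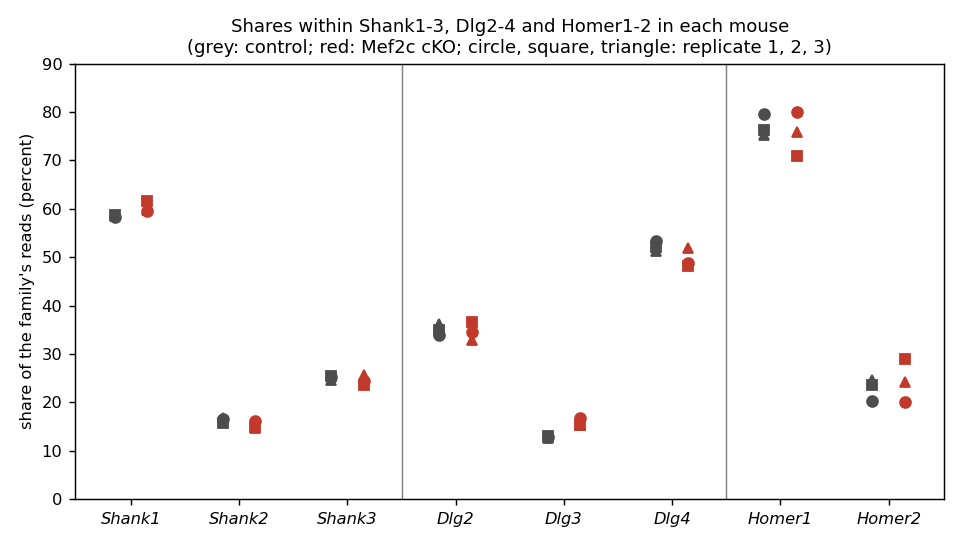
Share of the reads on *Shank1* to *Shank3*, *Dlg2* to *Dlg4*, and *Homer1* and *Homer2* that each gene took (percent, from 0) in the 3 control (grey) and 3 *Mef2c* cKO mice (red). The *Dlg3* and *Shank1* shares do not overlap between genotypes (12.5 to 13.1% against 15.2 to 16.7% for *Dlg3*), and the *Homer1* share of *Mef2c* cKO mice spreads from 71.0 to 80.1%.

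*Dlgap1* (chr17:70318413-71170753, plus strand), the bridge between the DLG and SHANK layers, had 634.1, 720.0 and 655.4 RPM in the controls and 556.0, 620.2 and 582.7 in *Mef2c* cKO mice. The highest *Mef2c* cKO mouse lay just under the lowest control, and the log2 fold change was -0.19 (SE 0.07, interval -0.35 to -0.03, adjusted p = 0.109). Its relative *Dlgap2*, from the list of other DLG, DLGAP and HOMER genes, had 135.1, 151.7 and 180.2 in the controls and 112.6, 99.6 and 94.5 in *Mef2c* cKO mice. *Dlgap2* fell by 0.60 (SE 0.11, adjusted p = 0.00611) and was the 1 of 7 genes of that list past both cut-offs. The median log2 fold change of the 7 was -0.14, and 4 were below 0.

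The HOMER genes encode the adaptors that tie the lattice to metabotropic receptors and calcium stores. *Homer1* (chr13:94073712-94174917, plus strand) varied most of the 9 genes within a genotype, with a coefficient of variation of 17.1% in controls and 24.9% in *Mef2c* cKO mice. Those of the other scaffolds were between 0.768% and 8.71%. It had 305.6, 236.3 and 224.8 RPM in the controls and 281.3, 169.4 and 224.7 in *Mef2c* cKO mice, so the genotypes overlapped, and its log2 fold change of -0.20 had an interval of -0.61 to 0.21 (adjusted p = 0.521). The value rested on single mice, as the log2 fold change was -0.01 without *Mef2c* cKO 2, -0.06 without control 1 and -0.38 without *Mef2c* cKO 1. *Homer2* (chr7:88745367-88851811, minus strand) was the least abundant of the 9. It had 78.0, 73.0 and 73.5 in the controls and 70.1, 69.2 and 71.3 in *Mef2c* cKO mice, and its log2 fold change was -0.09 (interval -0.22 to 0.04, adjusted p = 0.335).

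*Homer1* makes a long adaptor and, from an earlier end, the short Homer1a, which neuronal activity induces and which uncouples the long forms. A count per gene does not separate the transcripts, of which the annotation lists 13. Of 14 other activity-induced genes with a count in each mouse, 12 were highest of the *Mef2c* cKO mice in *Mef2c* cKO 1, where *Homer1* was highest, and 10 were lowest in *Mef2c* cKO 2, where *Homer1* was lowest. Among the controls 5 of 14 were highest in control 1, where *Homer1* was highest, and 5 of 14 were lowest in control 3, where *Homer1* was lowest. The share of all tested genes with these orders of mice was not computed, so the counts have no background beside them. Genes of one list need not vary independently, and *Mef2c* cKO 2 had the smallest sample total, 19326365 reads. The 14 genes summed to 631.2, 525.5 and 630.9 RPM in the controls and 740.0, 489.0 and 534.4 in *Mef2c* cKO mice. Striatal projection neuron markers also differed between the *Mef2c* cKO mice, with 9 markers summing to 589.2, 296.0 and 493.0, against 313.6 to 373.0 in the controls. In both genotypes the mouse with the most *Homer1* was the one of 14 weeks. As ages matched between the genotypes, age as a covariate could not change the *Homer1* log2 fold change of -0.20. With that covariate the limma adjusted p was 0.278 (range over the alternatives on recovered reads 0.194 to 0.978). The part of activity and dissection in the *Homer1* values was not tested. Of the activity list of 15, *Ptgs2*, which encodes the inducible cyclooxygenase, was the 1 gene past both cut-offs, with a rise of 1.22 (adjusted p = 0.000679).

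Promoter windows were read for 7 of the 9 genes from RefSeq (GRCm38.p6, a later build than the mm9 of the counts), 15 windows in all, each of 250 bases before and 50 bases after an annotated start. The core of the binding site of MEF2 proteins was searched as CTANNNNTAG on both strands. It occurred in 1 of the 15 windows and in 3.69% of all 32851 windows. The half-site of the cyclic AMP response element, searched as TGACG on both strands, occurred in 3 of the 15 and in 20.8% of all windows. The *Dlg2* window with the MEF2 core is shown because *Mef2c* was the gene removed. It covers chr7:91090536-91090835 on the plus strand, and the core, in capitals, begins 9 bases past the start. *Dlg2* has 2 other windows with no match.
Dlg2: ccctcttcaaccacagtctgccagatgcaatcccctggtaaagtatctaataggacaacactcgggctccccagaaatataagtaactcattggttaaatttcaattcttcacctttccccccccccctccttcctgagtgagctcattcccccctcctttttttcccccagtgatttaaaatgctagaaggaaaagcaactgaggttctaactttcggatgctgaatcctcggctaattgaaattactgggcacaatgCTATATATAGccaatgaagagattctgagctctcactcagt
The *Homer1* window at chr13:93303507-93303806, plus strand, is shown for the gene that varied most between mice. It holds 3 half-sites, in capitals, beginning 56, 40 and 14 bases before the start. *Homer1* has 1 other window, with no match.
Homer1: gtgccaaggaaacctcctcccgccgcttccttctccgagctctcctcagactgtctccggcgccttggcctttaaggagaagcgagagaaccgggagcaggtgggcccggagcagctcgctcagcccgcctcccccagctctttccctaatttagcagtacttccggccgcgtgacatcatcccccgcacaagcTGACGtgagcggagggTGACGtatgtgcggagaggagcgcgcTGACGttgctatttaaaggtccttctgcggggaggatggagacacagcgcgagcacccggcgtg
The *Dlg4* window at chr11:70023732-70024031, plus strand, belongs to the scaffold with the lowest coefficient of variation among controls, which fell. It holds 1 half-site, in capitals, 76 bases before the start, and no MEF2 core. *Dlg4* has 2 other windows with no match.
Dlg4: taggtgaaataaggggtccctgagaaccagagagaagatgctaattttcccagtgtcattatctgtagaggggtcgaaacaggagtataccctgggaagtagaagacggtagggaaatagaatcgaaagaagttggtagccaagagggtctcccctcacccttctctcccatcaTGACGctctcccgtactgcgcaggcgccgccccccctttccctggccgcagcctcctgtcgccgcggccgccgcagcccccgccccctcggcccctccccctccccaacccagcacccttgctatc
A match describes the letters of a window and not the binding of a protein.

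Per kilobase of annotated exon sequence in mm9, the level of the scaffolds in controls ran from *Dlg4* at 164.1 ± 1.26 RPM per kilobase down to *Homer2* at 6.71 ± 0.25 (SD, n = 3). Between them stood *Shank1* at 77.3 ± 2.46, *Dlg2* at 46.6 ± 2.25, *Dlgap1* at 39.4 ± 2.63, *Dlg3* at 32.1 ± 0.79, *Shank3* at 30.9 ± 0.71, *Homer1* at 22.5 ± 3.85 and *Shank2* at 16.8 ± 0.82. No 2 neighbours in this order overlapped among the control mice, though *Dlg3* and *Shank3* came close, with a lowest *Dlg3* of 31.6 and a highest *Shank3* of 31.4. In *Mef2c* cKO mice *Dlg3* at 35.7 ± 1.31 stood beside *Dlgap1* at 34.5 ± 1.9, a difference within their spread. The lengths come from the GENCODE annotation and not from the counting of the reads, and they pool all annotated transcripts, so the order rests on them.

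The 9 genes together had 3517, 3603 and 3557 RPM in the controls and 3216, 3128 and 3193 in *Mef2c* cKO mice. Their sum was 0.893 times the control level, with no overlap (exact permutation p = 0.1, n = 3 each, the smallest possible). General neuron markers, summed over 11 genes, had 8513 to 9615 RPM in controls and 10410 to 10920 in *Mef2c* cKO mice. Of 12 tested, 4 passed both cut-offs, all higher. Excitatory neuron markers, also summed over 11 genes, had 5877 to 6942 in controls and 5817 to 6926 in *Mef2c* cKO mice. Of 14 tested, 5 passed both cut-offs as lower and 4 as higher. Astrocyte markers summed to 5047 to 5352 in controls and 4483 to 4762 in *Mef2c* cKO mice over 10 genes, and oligodendrocyte markers to 3312 to 5324 and 5276 to 6771 over 9 genes. The part of such shifts in the scaffold values was not tested.

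Among genes whose products bind or neighbour the scaffolds, some passed both cut-offs. Of 34 tested scaffold, adaptor and signalling proteins of the postsynaptic density outside the 9, 6 (17.6%) passed both cut-offs, all lower, with a list median of -0.04. *Mpp3*, a MAGUK related to the DLG genes, fell by 0.88 (adjusted p = 0.000278), from 73.1, 73.4 and 62.1 to 40.6, 37.6 and 34.7 RPM. *Magi1*, another membrane-associated guanylate kinase with inverted domains, fell by 0.79 (adjusted p = 5.37e-05), and its relative *Magi3* fell by 0.42 (adjusted p = 0.00441). *Ppp1r9a* (neurabin, which binds F-actin and protein phosphatase 1) fell by 0.50 (adjusted p = 0.00199). *Kalrn*, a signalling protein of dendritic spines, and *Sipa1l1* (SPAR), a Rap regulator that binds PSD-95, each fell by 0.32 (adjusted p = 0.0161 and 0.00402).

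Glutamate receptors and the auxiliary subunits and adhesion proteins that cluster with the scaffolds changed in both directions. Of 23 tested, 6 passed both cut-offs as lower and 3 as higher, 39.1% of the list, and the list median was 0.01. Among the proteins held by the DLG domains, the neuroligin *Nlgn1* had 136.7, 146.1 and 163.6 RPM in the controls and 85.5, 94.8 and 84.7 in *Mef2c* cKO mice, and fell by 0.75 (adjusted p = 0.00037). The synaptic adhesion gene *Lrrtm4* fell by 1.05 (adjusted p = 0.000377). The AMPA receptor auxiliary subunits *Cacng2* (stargazin) and *Cacng3* fell by 0.42 and 0.47 (adjusted p = 0.00228 and 0.00522). The AMPA receptor subunit *Gria1* rose by 0.64 (adjusted p = 0.00129), from 253.3, 300.4 and 290.6 to 477.4, 400.2 and 439.9 RPM.

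Of the list for HOMER partners, 2 of 10 tested genes passed both cut-offs, both higher, with a list median of 0.09. *Ryr1*, a ryanodine receptor that releases calcium from stores, had 21.8, 24.7 and 21.1 RPM in the controls and 81.2, 89.6 and 96.6 in *Mef2c* cKO mice, a rise of 1.98 (adjusted p = 5.68e-06). *Oprd1*, also on the list, rose by 0.81 (adjusted p = 0.000376). It encodes the delta opioid receptor, which is not a calcium channel. Binding of that receptor to HOMER is not shown here, so the count of 2 need not be one of HOMER binders. For inhibitory synapses, 2 of 10 passed as lower and 2 as higher, with a median of 0.12. *Mdga1*, whose product binds neuroligin 2, rose by 2.75 (adjusted p = 5.68e-06), *Shisa7* rose by 0.34 (adjusted p = 0.0235), *Dtna* fell by 0.37 (adjusted p = 0.00467) and *Slitrk3* fell by 0.36 (adjusted p = 0.0213).

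**Figure D5:**
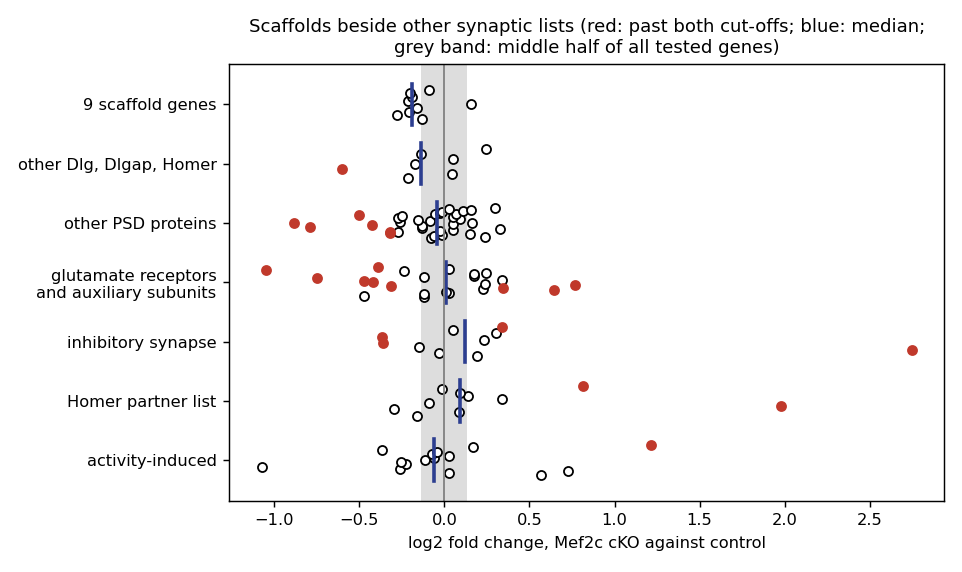
Log2 fold changes, *Mef2c* cKO against control, of the 9 scaffold genes and 6 other lists of synaptic or activity-induced genes, 1 point a gene, with the list median as a blue bar. The scaffolds lie between -0.28 and 0.15 with none past both cut-offs (red), while the other lists reach from -1.05 to 2.75 among the genes past them.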

How the data were processed

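RNA-Seq of polyadenylated RNA from 6 mice was processed by the authors with TopHat and Bowtie on mm9 and HTSeq, tools named without versions in the submitters' notes. The authors deposited 1 table per mouse of RPKM values (reads divided by gene length and by the sample total), in which 65 to 293 lengths recur across unrelated genes and differ between mice for the same gene. Whole reads, the sample total and the lengths were recovered from the steps between RPKM values: 99.77% to 99.88% of values above 0 lay on a step (within 0.05 of a whole read), and 93.24% to 98.8% allowed a single length. Values with several possible lengths were settled by the gene order shared by 3 mice, by the shorter length where the next was 10 times longer, or by the gene's other mice, and otherwise left missing, so that 96.26% to 99.4% gave a count. In simulated tables, 98.66% to 100% of recovered counts were right. The 92 rows that name no gene, not analysed here, held 0.057% to 0.085% of reads.

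RPM (reads scaled to a sample total of 1000000) were tested with limma 3.58.1 (R 4.3.3; lmFit, eBayes with trend, two-sided, genotype as the only term) on log2(RPM + 0.1), for genes above 0.5 in each mouse of at least 1 genotype with 2 or more recovered values per genotype. Fold changes are on that scale. The p-values set the genotype difference against the spread between these mice, with a variance moderated over all tested genes. Genes outside the 9 were named where they passed both cut-offs, at most 6 per list by absolute log2 fold change, with *Mef2c*, *Mef2a* and *Mef2d*. One gene that this rule names is not reported here. The members and lists were chosen with earlier results of these data known. Across genes, deviations of same-numbered mice did not correlate positively, which does not exclude a pairing, and no block was used in the main fit. Python 3 with pandas drew the tables. Alternatives comprised pseudocounts, scaling, filters, voom, no trend, a replicate block, age, omission of each mouse and the RPKM themselves.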

Additional observations from a re-analysis of the deposited data

How the results depend on the processing

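In 153 fits of single scaffold genes on recovered reads (17 alternatives for each of the 9), the sign of the log2 fold change held in all, and 135 stayed on the same side of an adjusted p of 0.05. The filters, the missing trend, the block and the age term could not change a log2 fold change in this balanced design. Their signs were therefore fixed in advance, and only their adjusted p could differ. *Shank2* (log2 fold change -0.28) passed in 10 of the 17 and *Dlg4* (-0.22) in 7. Without a variance trend adjusted p was 0.0872 for *Shank2* and 0.0904 for *Dlg4*. For *Dlg4* (-0.22) adjusted p was 0.0521 with median-of-ratios scaling, 0.0623 without a filter and 0.0749 with age as a covariate, and *Shank3* (-0.21) passed with median-of-ratios scaling at 0.0481. With the replicate number as a block, adjusted p was 0.0726 for *Shank2* (-0.28) and 0.13 for *Dlg4* (-0.22), 0 scaffold genes passed 0.05 and 1568 genes passed both cut-offs against 1881. Deviations of same-numbered mice correlated with r of -0.181, -0.104 and -0.093. A correlation across all genes cannot exclude that same-numbered mice were paired by litter or handling, and their ages matched.

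The count of scaffold genes with adjusted p under 0.05, 2 in the report, was 0 without trend or with the block, 1 without a filter or with age, and 0 to 1 when a mouse was omitted. Past both cut-offs it was 0 to 1 when a mouse was omitted and 2 with no fold cut-off. On omission the log2 fold change ranged from -0.35 to -0.24 for *Shank2* and from -0.26 to -0.19 for *Dlg4*. For all tested genes past both cut-offs it gave 1496 to 1667 genes, and for the other lists 37 to 50. On deposited RPKM 14 of 7974 genes passed both cut-offs, none of the 9 and 0 of the other lists. There *Dlg2* (0.89) and *Homer2* (0.27) turned positive, *Shank2* was at -0.37 (adjusted p = 0.975) and *Dlg4* at -1.36 (0.906), because their lengths differ between mice.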

Other observations

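Markers of cortical excitatory neurons changed in both directions beside the small differences of the scaffolds: of 14 tested, 5 passed both cut-offs as lower and 4 as higher. The upper-layer gene *Cux2* fell by 1.74 (limma adjusted p = 6.08e-06) and *Rorb*, typical of layer 4, also fell by 1.74 (adjusted p = 1.41e-05), each lower in 3 of 3 *Mef2c* cKO mice. *Emx1* fell by 1.88 (adjusted p = 5.58e-05), and it is the gene into which Cre was inserted in these mice. The neuronal differentiation factors *Neurod6* and *Neurod2* rose by 1.34 and 0.68 (adjusted p = 0.000255 and 0.00193), and *Tbr1* rose by 0.67 (adjusted p = 0.0143).

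Interneuron markers were also unequal: *Pvalb* fell by 0.80 (adjusted p = 0.000496), while *Cck*, *Sst* and *Npy* rose by 0.82, 0.57 and 0.54 (adjusted p = 0.000662, 0.0426 and 0.0314). The astrocyte gene *Gfap* rose by 1.37 (adjusted p = 0.000549) and the water channel gene *Aqp4* rose by 0.73 (adjusted p = 5.63e-05), while *Aldh1l1* fell by 0.39 (adjusted p = 0.00852). Of the 10 astrocyte markers 6 had negative log2 fold changes, and the list median was -0.12. The striatal marker *Drd1* rose by 1.70 (adjusted p = 0.000173), and none of 10 microglia, 10 endothelial and 4 choroid plexus markers tested passed both cut-offs.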
